A study of Mus musculus with 24 samples.

Results

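Tumours of the LIGEL group were compared with tumours of the IGEL group by bulk RNA sequencing. The 12 libraries were taken by their labels, 6 LIGEL and 6 IGEL, out of 24 in the study. The other 12 are 6 PBS controls and 6 from a group named GEM. All came from mouse pancreatic tumours on day 24, and the PBS libraries serve below as the untreated background. The labels do not expand the group names, so it is left unsaid which agent each group received, and they give neither the mouse strain and age nor the tumour line. The title speaks of priming the stroma with losartan, an angiotensin receptor blocker, ahead of a nanocarrier for chemo-immunotherapy, so the comparison asks which transcripts differ between these treated groups. The labels do not say that the 6 samples of a group were 6 animals, so p-values measure the spread between samples, which may in part be technical. That spread was estimated over all 24 libraries, those of PBS and GEM included, and not from LIGEL and IGEL alone.

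Pancreatic tumours are rich in stroma, in which fibroblasts and contractile myofibroblasts lay down collagen. Angiotensin II, cut from angiotensinogen by renin and the converting enzyme Ace, acts through the receptor Agtr1a and is known to drive fibroblasts towards matrix production, which losartan blocks. A bulk tumour also holds T cells, macrophages, neutrophils and leftover pancreas, and a lower level in bulk RNA cannot be told apart from fewer cells of a type or less RNA per cell.

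The sample titles carry the word muscle while the tissue field says pancreatic tumour, and the counts bear on this for 11 of the 12 libraries. The genes of skeletal muscle took between 0.00425% and 0.00547% of the counts in those 11. IGEL replicate 4 stood apart with 0.0473% (Wilson 95% interval 0.0466 to 0.0481%, counting error only). Its raw counts were 1062 for Acta1, 1491 for Myh4 and 293 for Ckm, which encode skeletal actin, a fast myosin and muscle creatine kinase. The next highest of the 12 libraries had 10, 0 and 4 counts. The epithelial keratin Krt19 lay between 31.8 and 127 CPM (counts scaled to library size) in all 12. Genes of acinar cells, which make digestive enzymes, took a median of 1.25% of counts in IGEL (0.00615 to 10.8%) and 0.885% in LIGEL (0.0155 to 8.66%). In PBS the median was 2.48% (0.379 to 44.6%). PBS replicate 5 held the 44.6%, and also the highest PBS values of Igfbp5, Agtr1a and Erp44 given below. Library totals were 33.7 to 38.8 M counts in IGEL and 30.7 to 40.5 M counts in LIGEL.

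No gene passed the test between LIGEL and IGEL. Of 19253 genes tested with edgeR's quasi-likelihood test, 0 passed a Benjamini-Hochberg adjusted p of 0.05 (0% of those tested), and the lowest adjusted p was 1 after rounding. DESeq2 and limma voom also called 0 genes, with a lowest adjusted p of 0.473 and 0.667. At an unadjusted p under 0.05 edgeR listed 242 genes (1.26%), of which 82 were higher in LIGEL (0.426%) and 160 lower (0.831%). With no true difference and evenly spread p-values, a share of 0.05 of the genes would fall there, more than was seen. The fold changes were spread around a median of -0.02 on the log2 scale, with an SD over genes of 0.386 and a median SE of 0.255. For 67.1% of the genes the 95% interval lay within 1 log2 unit of no difference. For the remaining genes a difference of more than 1 log2 unit was not excluded at this spread. All fold changes below are LIGEL minus IGEL, none of them passed the test, and they are given as values with their SE.

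**Figure D1:**
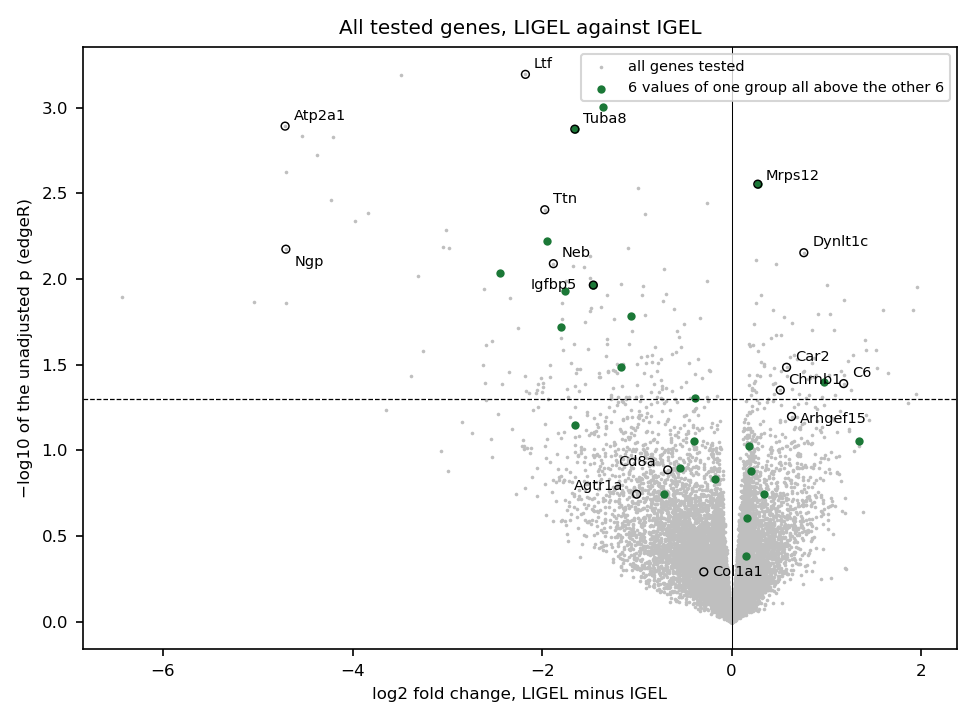
Log2 fold change of LIGEL minus IGEL (horizontal axis) and −log10 of the unadjusted edgeR p (vertical axis) for the 19253 genes tested, 1 dot a gene, with the dashed line at an unadjusted p of 0.05. Green dots are the 23 genes whose libraries do not overlap between the groups. The far left holds Atp2a1 of muscle at -4.71 and Ngp of neutrophils at -4.70, and no gene passed after adjustment.

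Libraries of different groups were about as alike as libraries of the same group. The rank correlation of log2 CPM over genes had a median of 0.973 between IGEL libraries (0.924 to 0.984) and 0.98 between LIGEL libraries (0.961 to 0.987). Between an IGEL and a LIGEL library it had a median of 0.975 (0.941 to 0.986). In a principal component analysis of the 12 libraries the leading component took up 49.1% of the variance. IGEL replicates 1 and 6 and LIGEL replicates 1 and 2 lay at its one end, IGEL replicates 2 and 4 and LIGEL replicate 4 at the other. Across the 12 libraries its rank correlation was -0.944 with the hypoxia and glycolysis list and 0.874 with the fibroblast list, as a description of libraries that also differ in acinar content (0.902). The spread within a group was wider in IGEL for 61.7% of genes, with a median SD of log2 CPM of 0.323 against 0.283 in LIGEL.

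**Figure D2:**
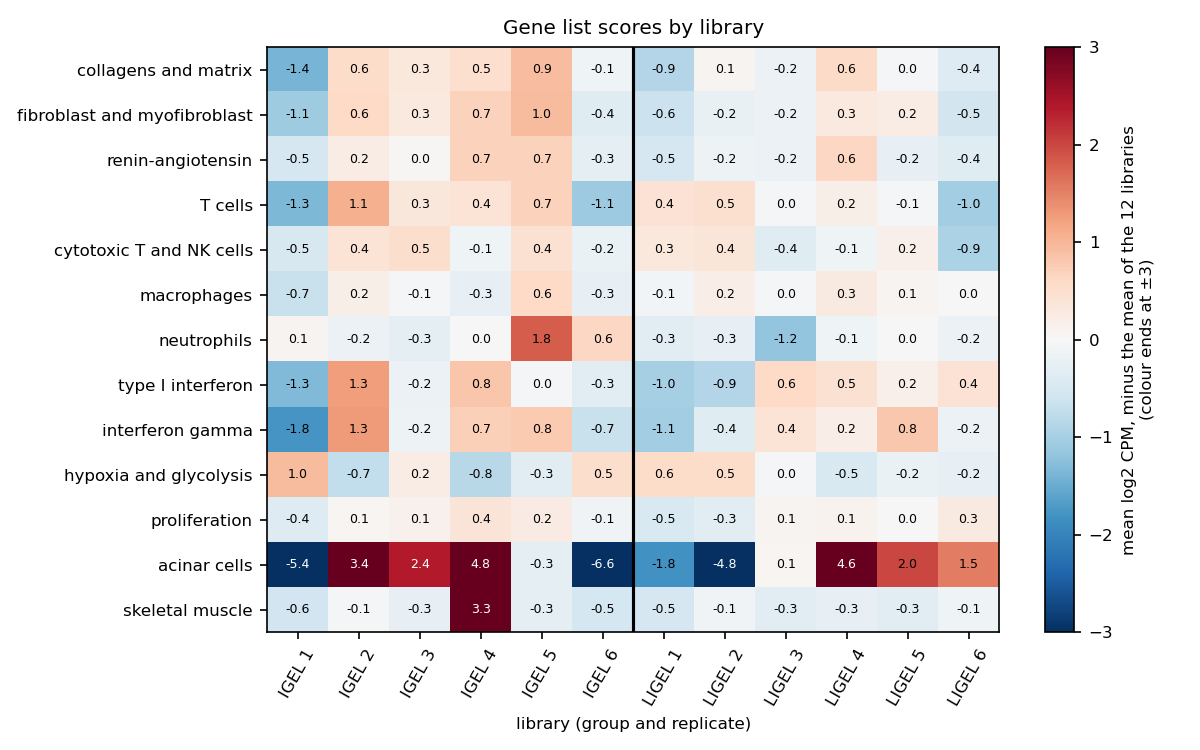
Mean log2 CPM of the genes of 13 lists in each of the 12 libraries (columns, by group and replicate), less the mean of the 12, where red is higher and blue lower. IGEL replicate 4 stands out for skeletal muscle, IGEL replicate 5 for neutrophils, and stroma, interferon and acinar lists are low together in IGEL replicate 1 and LIGEL replicate 1.

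In 23 of the 19253 genes (0.119%) the 6 libraries of LIGEL did not overlap the 6 of IGEL, 8 with LIGEL above (0.0416%) and 15 with LIGEL below (0.0779%). Some genes separate in this way by chance alone, and this number was not tested. The genes named in this and the next paragraph were chosen after their values were seen. Igfbp5, on chromosome 1 at 72857932 to 72874884 of mm10, encodes a secreted protein that binds insulin-like growth factors. It lay at a lowest, median and highest value of 0.942, 2.63 and 4.70 CPM in LIGEL and at 5.46, 7.14 and 9.90 CPM in IGEL. Every LIGEL library was below every IGEL library, with LIGEL replicates 2 and 3 lowest. The log2 fold change was -1.46 (SE 0.53) and ranged from -1.79 to -1.25 over the other settings and left-out libraries. PBS libraries ran from 3.55 to 43.3 CPM with a median of 6.5, inside the IGEL range. Only the lowest PBS library lay under the highest LIGEL value. Against PBS the log2 fold change was -2.53 (SE 0.54) for LIGEL and -1.07 (SE 0.52) for IGEL, with PBS replicates 1 and 5 highest at 29.7 and 43.3 CPM.

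Mrps12, a protein of the small mitochondrial ribosome subunit, had the smallest p of the genes with LIGEL above. It had 19.7, 21.1 and 22.2 CPM (lowest, median, highest) in LIGEL and 15.8, 17.2 and 19.1 CPM in IGEL, a log2 fold change of 0.28 (SE 0.08). The PBS median was 23.6 CPM (19.1 to 24.5), so the IGEL libraries were the low ones. Trappc12, a vesicle tethering factor, had 56.7 to 70.3 CPM in LIGEL and 52.6 to 55.6 CPM in IGEL. Sertad1, a cell cycle regulator, had 37.8 to 46.9 against 26.7 to 36.8 CPM. With LIGEL below, Tmeff1, a membrane protein with follistatin-like domains, had 6.26 to 9.75 CPM against 9.94 to 12.8 CPM in IGEL, with PBS at 8.69 to 20 CPM. Erp44, a chaperone of the secretory pathway, was the most abundant of that direction, with 56.1 to 62.6 CPM in LIGEL and 63.1 to 72.7 CPM in IGEL (log2 fold change -0.17, SE 0.11) and PBS at 48.8 to 96.2 CPM. Others were at low levels. The alpha-tubulin Tuba8 had at most 0.318 CPM in LIGEL and at least 0.363 CPM in IGEL (log2 fold change -1.65, SE 0.45). The fatty acid transporter Slc27a6 had at most 0.861 against at least 0.997 CPM, the mucin Muc6 at most 0.482 against at least 0.548 CPM, and the protease inhibitor family member Wfdc1 at most 0.153 against at least 0.197 CPM.

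**Figure D3:**
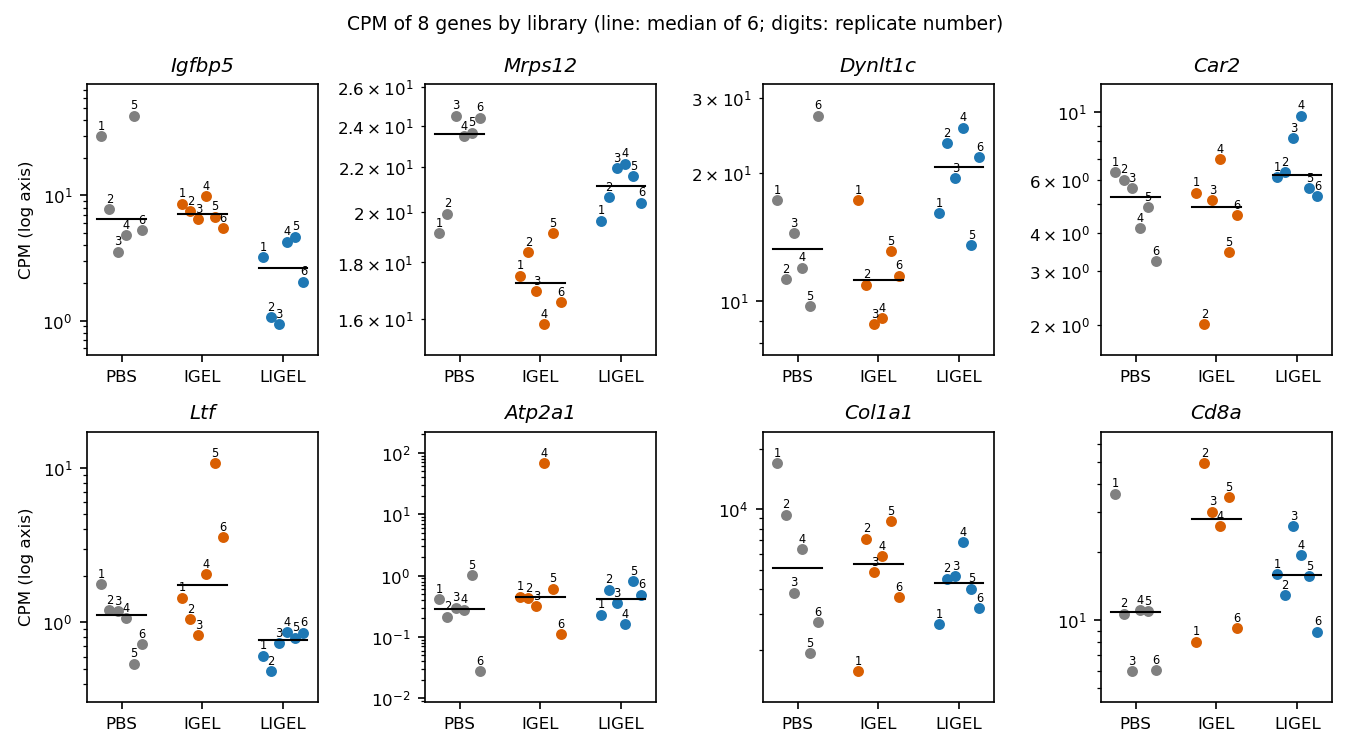
CPM on log axes of 8 genes in each PBS, IGEL and LIGEL library, 1 dot a library with its replicate number and a line at the median of 6. Igfbp5 and Mrps12 separate LIGEL from IGEL, Ltf and Atp2a1 are set apart by IGEL replicates 5 and 4, and Col1a1 and Cd8a overlap.

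The 12 higher genes of smallest unadjusted p with a log2 fold change of at least 0.5 had log2 fold changes of 0.51 to 1.59. Dynlt1c, a dynein light chain, came first with 13.6, 20.7 and 25.6 CPM in LIGEL and 8.85, 11.2 and 17.3 CPM in IGEL. The log2 fold change was 0.76 (SE 0.26). The groups overlapped through IGEL replicate 1, and PBS spanned 9.73 to 27.3 CPM. Dynlt1c is a member of a set of near-identical copies, as Amd2 is of Amd1, so their counts can be shared with the copies and are uncertain. Amd2, of polyamine synthesis, had a median of 3.07 CPM in LIGEL and 1.71 CPM in IGEL (log2 fold change 0.64, SE 0.25).

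C6, a component of the complement attack complex, had 1.61, 2.04 and 6.13 CPM in LIGEL and 0.43, 0.739 and 2.93 CPM in IGEL. Its PBS median was 0.838 CPM, and all 6 LIGEL libraries were above the IGEL median (log2 fold change 1.18, SE 0.55). Car2, a carbonic anhydrase that handles carbon dioxide and acid, had 5.30 to 9.72 CPM in LIGEL and 2.02 to 7.01 CPM in IGEL (0.58, SE 0.26). Cd163l1, a scavenger receptor family member, had 0.276 to 3.59 CPM and 0.171 to 0.726 CPM (1.59, SE 0.61). Smpd5, a sphingomyelinase, Hcn3, an ion channel, and Tmem273 each had all 6 LIGEL libraries above the IGEL median, with log2 fold changes of 0.52, 0.52 and 0.51. Gpha2, a glycoprotein hormone subunit, and the syncytin Syna had 1.15 (SE 0.58) and 0.77 (SE 0.40).

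Chrnb1, a subunit of the muscle acetylcholine receptor, and Arhgef15, a guanine nucleotide exchange factor known from endothelium, rested on the same libraries. For Chrnb1 LIGEL replicates 6 and 5 had 66.5 and 54.2 CPM, and the other LIGEL and all IGEL libraries lay between 21.7 and 31.3 CPM. For Arhgef15 the same replicates had 58.9 and 36.9 CPM, and IGEL ranged from 14.9 to 22.8 CPM. PBS libraries reached 49.4 CPM for Chrnb1 and 45.1 CPM for Arhgef15, so such levels were not limited to LIGEL. Without LIGEL replicate 6 the log2 fold changes went from 0.51 to 0.29 for Chrnb1 and from 0.63 to 0.26 for Arhgef15.

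Of the 12 lower genes of smallest p, 10 encode muscle proteins. Atp2a1, the calcium pump of fast muscle, on chromosome 7 at 126445858 to 126463108 of mm10, had 0.161, 0.422 and 0.823 CPM in LIGEL and 0.113, 0.439 and 68.1 CPM in IGEL. The giant sarcomere proteins Ttn and Neb reached 139 and 52.7 CPM in IGEL, where the next IGEL library had 9.72 and 4.27 CPM. The maximum was IGEL replicate 4 for each, and the medians of the groups were close. Actn3 and Actn2, actinins of the Z disc, Mybpc2, Myo18b and Cmya5 also peaked in that library, at 6.04 to 14.1 CPM, with at most 1.47 CPM in any other IGEL library and at most 0.646 CPM in LIGEL. PBS libraries reached 5.98 CPM of Cmya5. The log2 fold changes were -4.71 for Atp2a1 (SE 1.28), -1.97 for Ttn (SE 0.62) and -1.88 for Neb (SE 0.65). Without IGEL replicate 4 they were 0.20, -0.08 and 0.03. On the muscle list 7 of 11 tested genes had an unadjusted p under 0.05 as lower, against 0.831% of all genes tested. The list's median of -1.38 became 0.03 without IGEL replicate 4.

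Hspb7, a small heat shock protein of striated muscle, was lower also outside that library. It had 1.13 to 2.66 CPM in LIGEL and 2.19 to 3.35 CPM in the other IGEL libraries, with 7.54 CPM in IGEL replicate 4. Its log2 fold change was -0.99 (SE 0.30), and -0.61 without IGEL replicate 4. Cryab, a related small heat shock protein, had 8.88, 10.4 and 13.9 CPM in LIGEL and 11.6, 14.4 and 38.3 CPM in IGEL, a log2 fold change of -0.78 (SE 0.34). IGEL replicate 1 had the 38.3 CPM, and without it the value was -0.43. Cryab entered the list of 12 in the fit without IGEL replicate 4, a setting chosen after seeing the data, as did the growth factor Bmp6 (-0.57, SE 0.23) and the endothelial adhesion molecule Selp (-0.72, SE 0.27). For Selp the IGEL libraries had 4.06, 8.24 and 10.1 CPM and the LIGEL libraries 3.40, 4.25 and 6.48 CPM, with PBS at 3.28 to 6.37 CPM.

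The other lower genes were granule proteins of neutrophils, which are made early in the life of these cells. Ltf, or lactoferrin, an iron-binding granule protein, had the smallest p of all genes. It lay at 0.482, 0.763 and 0.861 CPM in LIGEL and at 0.828, 1.75 and 10.75 CPM in IGEL, with PBS at 0.540 to 1.77 CPM. IGEL replicate 5 had the maximum and IGEL replicate 6 followed with 3.55 CPM. The log2 fold change was -2.18 (SE 0.55), and -1.30 without IGEL replicate 5.

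The 250 bases before the RefSeq start of Ltf, Ngp and S100a9 (GRCm38.p6, the build of mm10) are printed below. These neutrophil genes were highest in the same library and hold a match to the letters TTGCNNAA on either strand (TTNNGCAA on the printed one). Such letters are a site type of the C/EBP factors known from granulocytes. Capitals mark the matches. Of 7 neutrophil genes looked at (these, Camp, Elane, Mpo and S100a8), 3 hold a match, against 9.56% of 32851 RefSeq promoters in a window of the same length. The 7 were all highest in IGEL replicate 5 among the IGEL and LIGEL libraries, so these shares are no test of the motif. The match of Ltf, at chr9:111019042-111019291 on the plus strand, begins 75 bases before the start. Ngp, at chr9:110419558-110419807 on the plus strand, has matches beginning 138 and 11 bases before it. The match of S100a9, at chr3:90695722-90695971 on the minus strand, begins 236 bases before it. A match is a run of letters and does not show that a factor binds there.
Ltf: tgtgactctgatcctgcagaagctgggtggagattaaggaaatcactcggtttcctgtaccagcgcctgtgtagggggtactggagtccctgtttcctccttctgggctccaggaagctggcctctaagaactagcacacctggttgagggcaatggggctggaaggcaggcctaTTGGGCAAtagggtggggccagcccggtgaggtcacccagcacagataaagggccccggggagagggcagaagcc
Ngp: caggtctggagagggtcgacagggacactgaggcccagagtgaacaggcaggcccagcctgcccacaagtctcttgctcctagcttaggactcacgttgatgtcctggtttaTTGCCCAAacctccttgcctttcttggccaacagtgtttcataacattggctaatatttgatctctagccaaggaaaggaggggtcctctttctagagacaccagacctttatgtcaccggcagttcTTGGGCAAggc
S100a9: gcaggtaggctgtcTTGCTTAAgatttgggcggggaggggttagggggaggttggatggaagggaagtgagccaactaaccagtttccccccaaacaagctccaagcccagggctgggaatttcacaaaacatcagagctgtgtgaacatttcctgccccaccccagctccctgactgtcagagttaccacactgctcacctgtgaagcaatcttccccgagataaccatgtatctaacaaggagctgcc

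Ngp, neutrophilic granule protein, had 0 to 0.538 CPM in LIGEL and 0, 0.839 and 12.45 CPM in IGEL. Mpo, the granule enzyme myeloperoxidase, had at most 0.123 CPM in LIGEL and up to 2.87 CPM in IGEL. S100a8 and S100a9, calcium-binding proteins of neutrophils named here outside the rule for genes, peaked at 9.91 and 15.9 CPM in IGEL against 1.78 and 3.10 CPM in LIGEL. All 4 maxima were in IGEL replicate 5, which also had 39 raw counts of the protease Elane and 58 of Camp, against at most 8 and 14 in the other 11 libraries. Without it the log2 fold changes went from -4.70 to -2.84 for Ngp, from -4.37 to -2.65 for Mpo, from -1.78 to -0.59 for S100a8 and from -1.51 to -0.71 for S100a9. PBS libraries reached 9.26 CPM of S100a8 and 15.3 CPM of S100a9.

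On the neutrophil list 10 of 14 tested genes were lower, against 54.9% of all genes tested. Of the 14, 5 were lower at an unadjusted p under 0.05, against 0.831% of all genes tested. The list's median log2 fold change was -0.82, and -0.51 without IGEL replicate 5. The 4 that were higher were Ly6g, Csf3r, Cxcr2 and Cxcl5. Cxcr2, the chemokine receptor of mature neutrophils, had 0.377 to 3.35 CPM in LIGEL and 0.742 to 2.82 CPM in IGEL (log2 fold change 0.24, SE 0.62). Its sign is not settled, with -0.062 without LIGEL replicate 5 and -0.030 with voom. IGEL replicate 5 also held adipocyte transcripts, with 33 counts of Adipoq, 30 of Plin1 and 43 of Cidec against at most 5, 2 and 0 in the other 11. PBS replicate 1 had more, at 52, 70 and 77 counts. Of the adipocyte list, 1 of 5 tested genes had an unadjusted p under 0.05, the lipid droplet protein Plin4, at 0.848 to 1.97 CPM in LIGEL and 0.847 to 5.86 CPM in IGEL. The part of adipose tissue in the granule values was not tested.

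**Figure D4:**
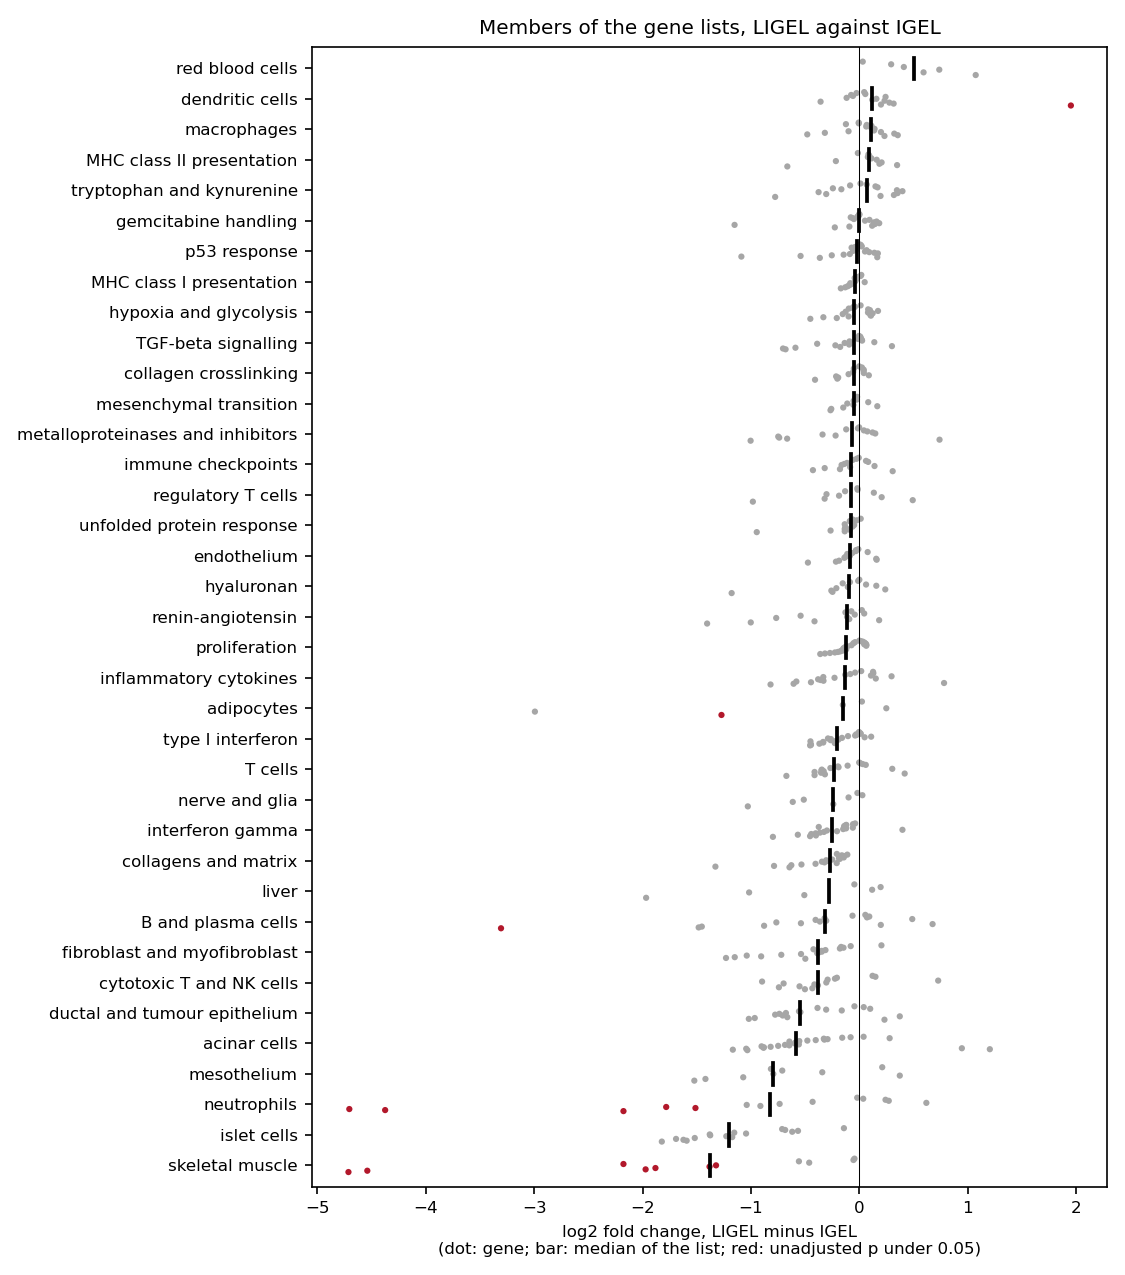
Log2 fold change of LIGEL minus IGEL of the tested members of 37 gene lists, 1 dot a gene, with a bar at the list's median and red dots for an unadjusted p under 0.05. Red dots gather on the lower side in skeletal muscle (7 of 11) and neutrophils (5 of 14), against 0.831% of all genes tested. All 20 genes of collagens and matrix lie below 0, from -1.33 to -0.11.

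The gene lists below are described by how many members were higher or lower, where 45.1% of all genes tested were higher in LIGEL and 54.9% lower. The median of 36 of the 37 lists changed sign or moved by over 1.5 times when a single library was left out, and 17 changed sign. Libraries that move a median are therefore named beside many lists, though not always the library that moves it most.

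For the stroma, fold changes were below 0 for every gene of the matrix list, and no gene reached an unadjusted p under 0.05. All 20 collagen and matrix genes were lower, with a median log2 fold change of -0.27 against -0.02 over all genes tested. Col1a1, the main fibrillar collagen chain, had 2677, 4270 and 6849 CPM in LIGEL and 1565, 5357 and 8681 CPM in IGEL. IGEL replicate 1 was the lowest and IGEL replicate 5 the highest of the 12, so that the LIGEL libraries fell inside the IGEL range. The log2 fold change was -0.29 (SE 0.44, 95% interval -1.20 to 0.62). Elastin (Eln) had medians of 31.7 and 93.4 CPM (-1.33, SE 0.96), the proteoglycan lumican (Lum) 13.4 and 32.1 CPM (-0.79, SE 0.59), and Col12a1, which binds to collagen fibrils, 163 and 265 CPM (-0.64, SE 0.44). Without IGEL replicate 5 the list's median was -0.14, and without IGEL replicate 1 it was -0.46.

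Of 18 fibroblast and myofibroblast genes 17 were lower, with a median of -0.38. As single libraries were left out it ranged from -0.53, without IGEL replicate 1, to -0.22, without IGEL replicate 5. Pi16, a secreted fibroblast protein, had 4.07, 6.25 and 15.3 CPM in LIGEL and 2.20, 20.9 and 36.2 CPM in IGEL (-1.23, SE 0.70). Every LIGEL library was below the IGEL median, yet IGEL replicates 1 and 6 were below all LIGEL libraries. Acta2, the smooth muscle actin of myofibroblasts, had medians of 103 and 139 CPM (-0.54, SE 0.45), and Fap, a surface protease of cancer fibroblasts, 19.4 and 17.2 CPM (-0.35, SE 0.38). Collagen crosslinking genes were close to even, 5 higher and 8 lower with a median of -0.05, and among them Lox had medians of 80.6 and 105 CPM. Hyaluronan genes, 3 higher and 9 lower, had -0.10, and metalloproteinases with their inhibitors, 5 higher and 9 lower, had -0.07. Mmp9, a gelatinase, had 116, 503 and 870 CPM in LIGEL and 217, 291 and 402 CPM in IGEL (0.74, SE 0.47).

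In the angiotensin pathway, 3 of 13 tested genes were higher and 10 lower, with a median of -0.11 (-0.32 without LIGEL replicate 4) and none at an unadjusted p under 0.05. The precursor Agt was near the floor, at 0 to 0.861 CPM in LIGEL and 0 to 1.43 CPM in IGEL. Renin (Ren1) had at most 1 raw count in any of the 12 libraries, and the receptors Agtr1b and Agtr2 at most 2. Ace, which makes angiotensin II, had 44.2, 56.5 and 73.6 CPM in LIGEL and 33.8, 54.2 and 60.8 CPM in IGEL (0.18, SE 0.21). Agtr1a, the receptor that losartan blocks, had 0.161, 0.476 and 0.637 CPM in LIGEL and 0.253, 0.987 and 1.34 CPM in IGEL. All 6 LIGEL libraries lay below the IGEL median and the groups overlapped. The log2 fold change was -1.0 (SE 0.72, 95% interval -2.50 to 0.50), and PBS ran from 0.164 to 8.38 CPM. Of targets downstream, Ccn2, a matrix-bound growth factor, had 11.5 to 38.0 CPM in LIGEL and 16.1 to 59.1 CPM in IGEL (-0.68, SE 0.35). TGF-beta genes, 7 higher and 11 lower, had a median of -0.05, and the ligand Tgfb1 had medians of 364 and 352 CPM (0.14, SE 0.29).

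T cell and killer cell genes had more lower than higher values in LIGEL, within the spread. Of 18 T cell genes 13 were lower (median -0.23), and of 15 cytotoxic genes 12 were lower (median -0.38). Cd8a, the coreceptor of killer T cells, had 8.92, 15.9 and 26.1 CPM in LIGEL and 8.04, 28.1 and 49.6 CPM in IGEL (-0.67, SE 0.43, 95% interval -1.56 to 0.21). IGEL replicates 2, 3, 4 and 5 lay above the LIGEL median and IGEL replicates 1 and 6 were among the lowest. Gzmb, the granule protease of these cells, had medians of 15.6 and 23.2 CPM (-0.50, SE 0.39), both above the PBS median of 6.88 CPM. Cd3e, part of the T cell receptor complex, had 1.20 to 5.13 CPM in LIGEL and 1.64 to 8.97 CPM in IGEL. Without IGEL replicate 2 the T cell median was -0.01 and the cytotoxic median -0.12. Among checkpoints, 4 of 14 were higher and 10 lower (median -0.07). Cd274, which encodes PD-L1, had medians of 28.6 and 33.5 CPM (-0.18, SE 0.17), and Vsir, an inhibitory receptor of myeloid cells, had 98.7 and 72.4 CPM (0.31, SE 0.17). Foxp3, the regulatory T cell factor, had medians of 1.34 and 0.872 CPM (0.49, SE 0.44), and 3 of 10 genes of that list were higher.

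Macrophage and dendritic cell genes had small positive medians. Of 18 macrophage genes 12 were higher, with a median of 0.11. It was 0.02 without IGEL replicate 4 and 0.26 without IGEL replicate 5. Csf1r, the growth factor receptor of macrophages, had 156, 176 and 259 CPM in LIGEL and 51.6, 140 and 254 CPM in IGEL (0.35, SE 0.30). Cd68, a lysosomal protein, had medians of 82.0 and 75.7 CPM (0.07, SE 0.24). Of 15 dendritic cell genes 10 were higher (median 0.12, and -0.0032 without LIGEL replicate 2). Of the 15, 1 was higher at an unadjusted p under 0.05, against 0.426% of all genes tested. It was the lectin Cd209a, at 0.0531 to 0.75 CPM in LIGEL and at most 0.349 CPM in IGEL. Class II presentation genes, 8 of 11 higher, had a median of 0.09, which was -0.13 without IGEL replicate 6 and 0.50 without IGEL replicate 2. Class I genes, 3 of 14 higher, had -0.04. Of 17 B and plasma cell genes 11 were lower (median -0.32, and -0.04 without IGEL replicate 5). Ighg1, an antibody heavy chain constant region, rested on IGEL replicates 4 and 5, with 27.3 and 15.3 CPM against at most 1.37 CPM in LIGEL. Its log2 fold change was -3.30 (SE 1.17), and 0.36 with those replicates left out.

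Interferon gamma scores varied more within IGEL than between the group medians, 4.29 in LIGEL and 4.57 in IGEL. Of 24 type I interferon genes 20 were lower (median -0.20), and of 20 interferon gamma genes 19 were lower (median -0.25). The score, which averages log2 CPM over the interferon gamma genes, was lowest in IGEL replicate 1 at 2.51 and highest in IGEL replicate 2 at 5.57, with LIGEL at 3.24 to 5.08. The same score of the type I interferon genes had a median of 5.86 in LIGEL and 5.46 in IGEL, opposite in direction to the median fold change. Without IGEL replicate 2 the median log2 fold changes were 0.13 for type I interferon and 0.03 for interferon gamma. Mx1, an antiviral GTPase, had 12.1, 29.4 and 35.6 CPM in LIGEL and 8.40, 25.1 and 81.8 CPM in IGEL (-0.45, SE 0.42). Cxcl9, a chemokine that draws T cells, had medians of 19.6 and 30.1 CPM (-0.57, SE 0.61). Il1b, an inflammatory cytokine, had 16.9 and 12.3 CPM (0.78, SE 0.56), and its list had 7 of 19 genes higher with a median of -0.13. Tryptophan and kynurenine genes, 9 of 15 higher, had 0.07.

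Of 27 proliferation genes 20 were lower with a median of -0.12, and Mki67, a marker of cycling cells, had 192, 283 and 319 CPM in LIGEL and 180, 303 and 392 CPM in IGEL (-0.16, SE 0.34). The p53 list, 9 of 22 higher, had -0.02, and its target Cdkn1a, a cell cycle inhibitor, medians of 151 and 136 CPM (0.09, SE 0.32). Genes that take up, activate or break down gemcitabine, a nucleoside analogue, were 7 of 17 higher. Unfolded protein response genes, 1 of 18 higher, had a median of -0.08. Hypoxia and glycolysis genes, 8 of 18 higher, had -0.05, and mesenchymal transition genes, 2 of 11 higher, -0.05. Endothelial genes, 3 of 15 higher, had -0.09. Ductal and epithelial genes, 4 of 17 higher, had -0.54, which was -0.14 without IGEL replicate 4 and -0.78 without IGEL replicate 1. The keratin Krt19 had medians of 95.5 and 69.4 CPM (0.37, SE 0.39).

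Acinar and islet genes had large median differences that turned on replicate 4 of either group. Of 29 acinar genes 25 were lower (median -0.58), and all 16 islet genes were lower (median -1.20). Cpa1, an acinar carboxypeptidase, had 5.09 to 4795 CPM in LIGEL and 1.69 to 7229 CPM in IGEL, and Chga, a granule protein of islet cells, 0.260 to 7.13 and 0 to 42.1 CPM. The highest library was replicate 4 in each group for these genes. Without IGEL replicate 4 the medians were 0.70 for acinar and 0.55 for islet genes, and without LIGEL replicate 4 they were -2.28 and -1.72. Mesothelial genes, 2 of 9 higher, had -0.79, and -0.31 without IGEL replicate 5. Liver genes, 2 of 6 higher, had -0.28, which was -0.03 without IGEL replicate 4 and -0.57 without LIGEL replicate 4. Nerve and glial genes, 1 of 7 higher, had -0.24, and -0.15 without LIGEL replicate 6. Red blood cell genes, 6 of 6 higher, had 0.50, and 0.83 without IGEL replicate 5.

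The count columns of IGEL replicate 1 and LIGEL replicates 1 and 2 are named A1 or A3 and the other 9 are not, which the labels do not explain. On the leading component these 3 lay at -105, -64.1 and -62.1, at the end that IGEL replicate 6 shared at -72.1. A tie between the column names and that component was not tested. Left out with their like in the GEM group, the A1 and A3 libraries changed no call, and 115 of the 242 genes stayed at an unadjusted p under 0.05. The medians were then -0.35 for collagens and matrix, -0.62 for T cells, -0.53 for cytotoxic genes, -0.16 for interferon gamma and -1.07 for neutrophils. The log2 fold changes of Igfbp5, Ltf and Agtr1a were -1.25, -2.14 and -0.82. The 3 libraries alone hold 1 IGEL sample, too few for a value within them.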

How the data were processed

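RNA of 24 mouse pancreatic tumour samples was sequenced on Illumina libraries. The authors deposited raw read counts per gene for 54532 genes, unnormalized, made with HISAT2 and featureCounts of Subread on mm10, per the submitters' processing notes, which give no versions. Strandedness is not given in the sources used here, so reads of overlapping genes on opposite strands cannot be told apart. Each count column was matched to its sample by name.

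Differences were tested with edgeR 4.0.16 in R 4.3.3. filterByExpr (min.count 10, min.total.count 15) kept 19253 genes and removed 0.0666% of counts. All 24 samples entered 1 robust quasi-likelihood fit with TMM factors and a mean per group, and LIGEL was set against IGEL with Benjamini-Hochberg adjustment over all genes, called at 0.05. CPM values are counts scaled by TMM-corrected totals, and log2 CPM adds a prior count of 2. Lists hold 606 genes in 37 sets, and 605 of the genes are in the table. They are described by counts and medians, with no test of a list.

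Genes named are the 12 higher and 12 lower with the smallest p (log2 fold change of 0.5 or more in size, a mean in the higher group of 1 CPM or more, no predicted genes, pseudogenes or antibody and T cell receptor segments), the 3 smallest-p members of each list, and 29 fixed genes. Some of the latter parts are left out of the text. Other genes are named outside the rule, such as S100a8, S100a9, Cxcr2, Retnlg and Cxcl9. An item that the rule selects is not reported here. The libraries, lists and rule were chosen with earlier results of these data known. Identical or duplicate libraries were looked for within IGEL and within LIGEL, and none was found. Pairs across groups and the PBS and GEM libraries were not checked.

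Alternatives were DESeq2 1.42.0, voom of limma 3.58.1 with quality weights, other scalings and filters, subsets of samples, covariates, a replicate block and leaving out each library. The IGEL libraries of replicates 1 and 4 deviated most like the LIGEL library of their own number (0.597 and 0.627), and the others did not. The labels name no pairing, so numbers were not used as pairs in the main fit. Intervals of shares are Wilson 95% intervals and cover counting error only. Promoter sequences are RefSeq's on GRCm38.p6. Tests were checked on simulated counts.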

Additional observations from a re-analysis of the deposited data

Results flagged for a closer look

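In the values given above, 178 sets of 6 libraries were checked for a highest or lowest library that stood apart from the other 5 by Dixon's 95% limit, and 31 had one. Chance gives about 1 in 20 such sets if values are normally spread, which was not checked for these CPM values. Genes that share a library are not independent, and some were named for their small p. The 31 can therefore not be read against that rate. IGEL replicate 4 accounts for 14 of the 31 and IGEL replicate 5 for 5.

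IGEL replicate 4 stood apart for muscle genes, with 68.1 CPM of Atp2a1, 12.6 of Actn3, 7.54 of Hspb7 and 8.41 of Actn2. It also had 139 CPM of Ttn, 6.04 of Mybpc2, 6.95 of Myo18b, 14.1 of Cmya5 and 52.7 of Neb. Its skeletal muscle score was 4.22 log2 CPM, where the next IGEL library had 0.88, and its muscle share 0.0473% of counts. The same library was high for the pancreatic genes Cpa1, at 7228 CPM, and Chga, at 42.1 CPM, and for Muc6, at 1.62 CPM.

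IGEL replicate 5 stood apart for neutrophil genes, with 10.75 CPM of Ltf, 12.45 of Ngp, 2.875 of Mpo, 9.91 of S100a8 and 15.9 of S100a9. IGEL replicate 1 was high for Tmeff1 at 12.8 CPM and for Cryab at 38.3 CPM.

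In LIGEL, replicate 4 was high for Cpa1 at 4795 CPM, the acinar share at 8.66%, the angiotensin score at 2.66 log2 CPM and Ngp at 0.538 CPM. Replicate 6 was low for Cd3e at 1.195 CPM and the T cell score at 1.46 log2 CPM, and high for Actn3 at 0.368 CPM. Replicate 3 was low for the neutrophil score at -0.87 log2 CPM. Replicate 5 was high for S100a8 at 1.78 CPM and low for the muscle share at 0.00425%.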

How the results depend on the processing

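edgeR called 0 genes at an adjusted p under 0.05 in each of its settings and with any single library left out, and DESeq2 and voom, run on all 24 samples, called 0. The number at an unadjusted p under 0.05, 242 with all 24 samples, was 909 with voom, 1604 with no filter on low counts, 487 with only the 12 samples, 379 without PBS replicate 5, 475 with the acinar score as a covariate and 527 with a replicate block on the 12 samples. It was 390 with the 12 samples less IGEL replicate 4, and 165 to 335 as single libraries were left out. The cause was not tested. Only 120 of the 242 genes were among the 527 under the replicate block, and same-numbered libraries correlated at -0.39 to 0.627. The number of genes whose groups do not overlap, 23, was 40 to 77 with 1 library left out, as fewer libraries have to separate.

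Of the named genes' fold changes, 927 values under other settings and 880 with a library left out kept their sign, and 17 and 8 did not. With IGEL replicates 4 and 5 out, chosen after seeing the data, the log2 fold change was 0.43 for Atp2a1, 0.19 for Neb, 0.36 for Ighg1, 0.0042 for Col1a1, 0.024 for Mki67, 0.45 for Agt, -0.10 for Cdkn1a, 0.34 for Cpa1, 0.10 for Chga and 0.58 for Retnlg. With the 12 samples less IGEL replicate 4 it was 0.20 for Atp2a1, 0.030 for Neb, -0.017 for Cdkn1a, 0.58 for Cpa1 and 0.10 for Chga. The replicate block gave 0.66 for Cpa1 and voom -0.030 for Cxcr2. Over the left-out libraries the range was -4.98 to 0.20 for Atp2a1, -2.10 to 0.03 for Neb, -0.64 to 0.0021 for Mx1, -0.045 to 0.27 for Cdkn1a, -2.43 to 0.58 for Cpa1, -1.997 to 0.10 for Chga and -0.062 to 0.54 for Cxcr2. Genes under about 1 CPM, such as Agtr1a, Wfdc1 and Tuba8, rest on few reads. The median SE of 0.255 limits what the main fit can show, and the spread within PBS and GEM enters it too.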

Other observations

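Genes of the sex chromosomes, chosen after their values were seen, set 2 of the IGEL libraries apart. Xist, the RNA that silences an X chromosome in female cells, had 3 raw counts in IGEL replicate 3 and 4391 to 23234 in the other 11 libraries of IGEL and LIGEL. The Y-linked genes Ddx3y, Eif2s3y, Kdm5d and Uty had 6, 5, 2 and 4 raw counts in IGEL replicate 4, which also carried the skeletal muscle reads, and 0 in the other 23 libraries of the study. IGEL replicate 4 had 20531 counts of Xist.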
